A study of Bos grunniens with 18 samples.

Results

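The genes examined in yak testis are those named SPATA (spermatogenesis associated) or TEX (testis expressed) followed by a number. The symbol pattern, with TEX11 and TEX12 left out, took 64 gene identifiers under 57 symbols, of 22183 genes in the deposited table. Of the 64, 31 carried a SPATA name and 33 a TEX name. The members were SPATA1 to SPATA48 and TEX2 to TEX264 as far as the table lists them, and 6 symbols (SPATA2, SPATA31A3, SPATA31D1, TEX10, TEX13A and TEX14) stood on more than 1 identifier, 13 identifiers in all, among which reads may be split. There were 4 genes with a symbol of this kind in lower case, which the pattern did not take. All 64 were tested. In the youngest age 7 of them had no counts in any library, and 10 more had 1 to 3 counts over the 3 libraries. These, and others with few counts there, passed the count filter only through the older libraries. Such members could differ from the youngest age in 1 direction only.

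These names record where a transcript was first found and do not mark a gene family. Some members are building parts of the late germ cell, such as the acrosome, the neck or the mitochondrial sheath of the sperm. Others act in dividing and meiotic germ cells, and others still work in most cells of the body, for example in ribosome assembly or in the endoplasmic reticulum. In a growing testis, spermatogonia enter meiosis at puberty, and round and elongating spermatids appear afterwards.

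Testis tissue came from 9 healthy male yaks of 1 cooperative that were castrated for sampling. There were 3 animals at each of 3 ages, which are Y6M (6 months), Y18M (18 months) and Y4Y (4 years). The labels give no other treatment or genotype, and a replicate number names a different animal at each age. Each animal gave 1 library of RNA depleted of ribosomal RNA, from which both gene counts and circular RNA (circRNA) counts were made. The ages were taken from the sample titles. Another label names a life stage for each of the 3 groups that goes against the titles and the protocol. Under that label Y18M stands as adulthood, Y6M as adolescence and the oldest group, Y4Y, as infancy.

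Gene libraries held 23.0 M to 33.1 M estimated counts, and levels are given as CPM, the count per 1 M of tested genes after TMM scaling. Of 16 spermatid genes on a marker list, 16 were higher in Y4Y than in Y6M, and their summed level was 5006 to 6670 CPM in Y4Y libraries, against 93.6 to 127 CPM in Y6M libraries. The 16 meiotic genes summed to 1161 to 1340 CPM in Y4Y and 24.5 to 42.1 CPM in Y6M. The list of undifferentiated spermatogonia went the other way in sum, with 160 to 177 CPM in Y4Y and 387 to 512 CPM in Y6M. Of its 11 genes tested, 4 were called higher and 2 lower in Y4Y, and their median log2 fold change was 0.08. Of all genes tested, 36.7% were called higher and 37.2% lower, so the calls higher in this list were near the share of all genes. The Y18M libraries stood apart from each other, with spermatid sums of 5260, 796 and 2839 CPM in replicates 1, 2 and 3. Tissue was sequenced in bulk, so more cells of a type and more RNA per cell cannot be told apart. Nothing in the labels says that a sample was processed in another batch.

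By 4 years nearly the whole set of SPATA and TEX genes had risen. Of the 64, 58 were higher in Y4Y than in Y6M at an adjusted p under 0.05, 2 were lower and 4 were not called. Among all 16742 genes tested, 36.7% were called higher and 37.2% lower. The median log2 fold change of the 64 was 6.76, or 6.73 with the 7 genes without Y6M counts placed at their bound, whereas that of all genes was -0.06. A rise with a log2 fold change of at least 4 was seen in 44 of the 64, against 12.8% of all genes. Members with few Y6M counts were tested through the older libraries and could only rise, so these counts are a description. The summed level of the set was 6806 to 7644 CPM in Y4Y libraries, against 723 to 802 CPM in Y6M libraries. Over the same ages the macrophage list, 6 symbols on 12 entries of which 10 could be tested, had 7 entries higher and 2 lower and summed to 327 to 355 CPM in Y4Y and 86.0 to 101 CPM in Y6M. No entry of any marker list was at 0 in all libraries, and the part of macrophages in the gain was not tested.

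The same set was already raised at 18 months, with 55 genes higher in Y18M than in Y6M, 1 lower and 8 not called. Of all genes, 32.7% were higher and 27.1% lower in that comparison. The median log2 fold change of the 64 was 5.82, against 0.02 for all genes. Both comparisons use the same Y6M libraries and are therefore not independent of each other. Without Y18M replicate 2, 58 members were higher in Y18M than in Y6M, and 11953 genes were called over the whole table, 54.3% of them higher, against 5481 higher and 4545 lower with all libraries.

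**Figure D1:**
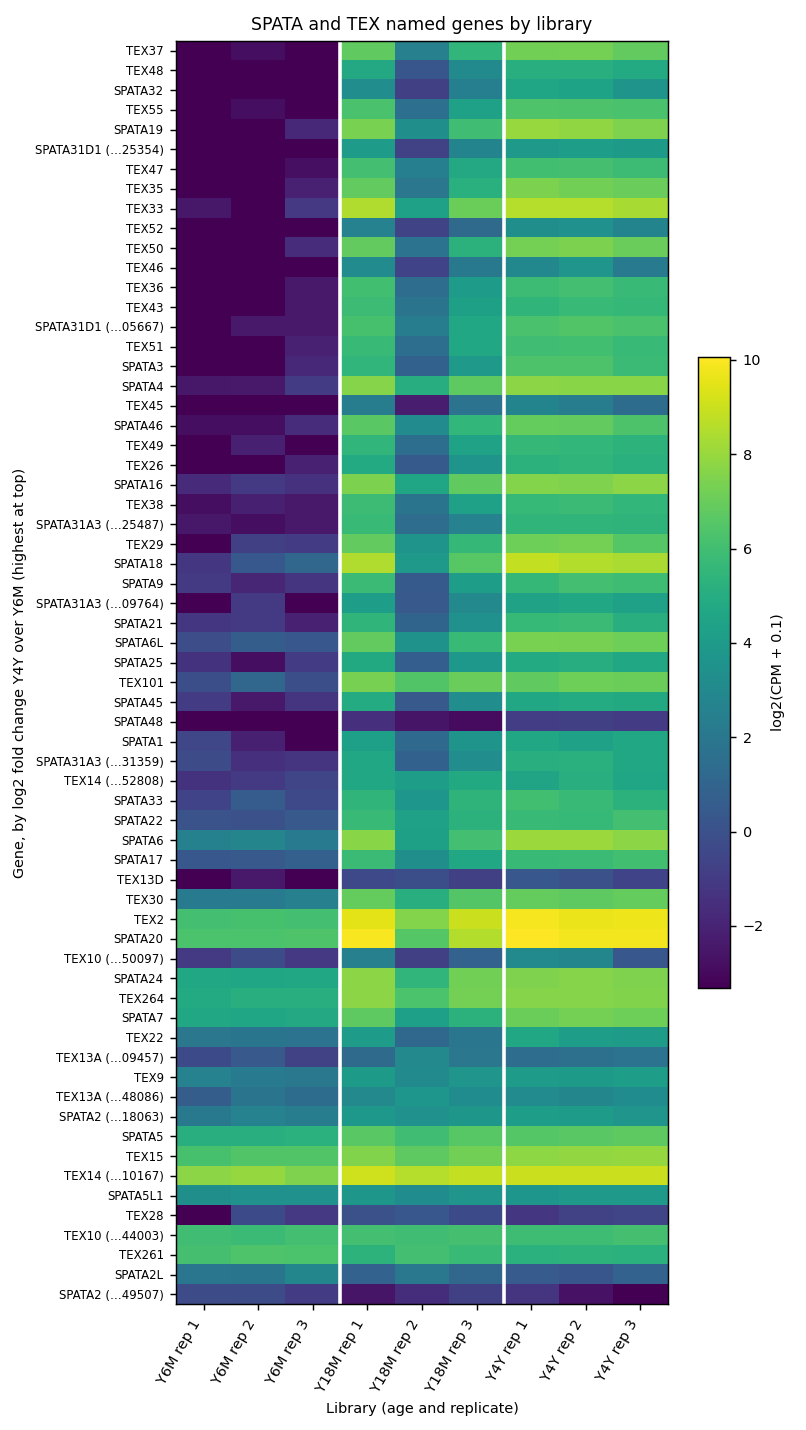
Level of each of the 64 identifiers (rows, ordered by log2 fold change Y4Y over Y6M) in each of the 9 libraries (columns), as log2(CPM + 0.1). The upper rows are near the bottom of the scale in all Y6M libraries and low in Y18M replicate 2, while TEX261 and the main TEX10 and TEX14 entries near the lower end are well above 0 in every library.

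By fitted log2 fold change the first 6 members were TEX37, TEX48, SPATA32, TEX55, SPATA19 and SPATA31D1 (the entry MSTRG.25354). TEX48, SPATA32 and SPATA31D1 had no Y6M counts, so only a lower bound of their gain is known and their rank rests on the fit. SPATA19, a protein of sperm mitochondria, had 0, 0 and 0.183 CPM in Y6M replicates 1 to 3, 165, 10.1 and 63.2 CPM in Y18M, and 260, 234 and 176 CPM in Y4Y. Every Y4Y library was above every Y18M library and every Y18M library above every Y6M library, and the log2 fold change Y4Y over Y6M was 11.79 ± 1.39 (SE, adjusted p = 0.000132). TEX37 had 0, 0.0434 and 0 CPM in Y6M, 111, 5.51 and 45.2 CPM in Y18M, and 149, 156 and 115 CPM in Y4Y. Its single Y6M count gave a ratio of 9759 for Y4Y over Y6M, with a 95% counting interval of 1751 to 385510. Such intervals and bounds cover counting error only.

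TEX55 was also at 1 count over the Y6M libraries, with 0, 0.0434 and 0 CPM there, 74.7, 2.87 and 20.04 CPM in Y18M, and 82.9, 79.6 and 75.8 CPM in Y4Y, a ratio of 5463 for Y4Y over Y6M (980 to 215797). TEX48 had no count in Y6M, and had 27.4, 1.10 and 8.46 CPM in Y18M and 35.2, 35.2 and 29.3 CPM in Y4Y. Against a floor of 3 counts over the Y6M group it was at least 766-fold higher in Y4Y. SPATA32 likewise had none in Y6M, with 9.28, 0.479 and 5.48 CPM in Y18M and 23.1, 22.1 and 12.1 CPM in Y4Y, at least 448-fold higher in Y4Y than in Y6M.

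SPATA31D1 stood on a pair of identifiers. The entry MSTRG.25354 had no Y6M count, 16.2, 0.513 and 6.39 CPM in Y18M, and 14.4, 17.5 and 15.9 CPM in Y4Y, at least 366-fold higher in Y4Y. The other, ENSBTAG00000005667, averaged 78.7 ± 6.84 CPM in Y4Y and 0.0594 ± 0.0515 CPM in Y6M (SD, n = 3 each). In all of these genes the Y4Y and Y6M libraries did not overlap. Over all genes, 41% had Y4Y libraries all above Y6M and 42% all below.

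All 16 members grouped as spermatid and sperm structure genes rose in Y4Y over Y6M, with a median log2 fold change of 9.66. SPATA16, needed for the acrosome, had a log2 fold change of 9.36 ± 0.81 (SE), with 193, 180 and 213 CPM in Y4Y and 0.211, 0.390 and 0.274 CPM in Y6M. SPATA6, a protein of the connecting piece in the sperm neck, averaged 249 ± 29.4 CPM in Y4Y and 5.60 ± 1.13 CPM in Y6M (SD, n = 3 each). The smallest gains of this group were those of SPATA24 (2.91 ± 0.48) and SPATA20 (3.62 ± 0.70), which were also the members of the group with the most counts in Y6M. Of the 28 members without an assigned role, 27 rose, with a median log2 fold change of 9.40, or 7.68 with genes lacking Y6M counts at their bound.

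The 5 members of spermatogonia and meiosis rose as well, with a median log2 fold change of 5.78. TEX14, which keeps the bridges between sister germ cells open, was among the most abundant members by CPM and was already present at 6 months. Its main entry ENSBTAG00000010167 had 214, 252 and 176 CPM in Y6M, 547, 385 and 464 CPM in Y18M, and 510, 521 and 520 CPM in Y4Y. The Y6M libraries were below all others, and Y18M and Y4Y libraries overlapped, with a log2 fold change Y4Y over Y6M of 1.27 ± 0.21 (SE, adjusted p = 0.000564). A second TEX14 entry, ENSBTAG00000052808, rose by 5.94 ± 0.37.

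TEX15, which acts in meiotic recombination in mouse, also started high, with 226, 238 and 245 CPM in Y4Y and 72.1, 87.0 and 85.5 CPM in Y6M (log2 fold change 1.53 ± 0.22). TEX101, a germ cell surface protein studied in mouse, and SPATA22, the partner of MEIOB in meiotic recombination, averaged 128 ± 12.9 and 57.1 ± 8.33 CPM in Y4Y, against 1.25 ± 0.720 and 1.04 ± 0.172 CPM in Y6M. TEX101 is the member of this kind with the largest gain, 6.67 ± 0.45 on the log2 scale.

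Members with a broad cellular role were mixed. Of 15, 10 rose, 2 fell and 3 were not called, with a median log2 fold change of 1.78. TEX2, which moves lipid at contacts of the endoplasmic reticulum, had 66.7, 72.8 and 66.7 CPM in Y6M, 736, 190 and 505 CPM in Y18M, and 946, 822 and 851 CPM in Y4Y. No ages of TEX2 overlapped, and the log2 fold change Y4Y over Y6M was 3.67 ± 0.44.

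SPATA18, a p53 target of mitochondrial quality control, showed the largest change of this group, 8.36 ± 1.25, with 0.338, 1.17 and 2.01 CPM in Y6M, 359, 15.3 and 96.6 CPM in Y18M, and 460, 372 and 326 CPM in Y4Y. Its Y18M replicate 1 lay within the Y4Y range and its replicate 2 far below. SPATA5, an ATPase of ribosome maturation, rose by 1.54 ± 0.20 and TEX264, an autophagy receptor of the endoplasmic reticulum, by 2.59 ± 0.33.

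SPATA20 had the highest mean CPM of all members, with 77.0, 78.0 and 83.1 CPM in Y6M, 983, 93.3 and 375 CPM in Y18M, and 1077, 913 and 930 CPM in Y4Y. In Y18M replicate 2 it was close to the Y6M libraries.

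Of the 64 identifiers, 6 were not called higher in Y4Y over Y6M: TEX261 and SPATA2L were lower in Y4Y than in Y6M, and SPATA5L1, TEX28, a TEX10 entry and a SPATA2 entry were not called. TEX261, a protein of the endoplasmic reticulum, had 68.5, 83.4 and 78.6 CPM in Y6M, 39.8, 67.3 and 52.7 CPM in Y18M, and 37.6, 39.8 and 37.1 CPM in Y4Y. The Y4Y libraries were all below the Y6M libraries, and it fell by 1.01 on the log2 scale (SE 0.20, adjusted p = 0.0019). SPATA2L, a relative of SPATA2, had 3.76, 3.64 and 7.08 CPM in Y6M, 1.76, 3.97 and 2.01 CPM in Y18M, and 1.36, 1.09 and 1.74 CPM in Y4Y. All Y4Y libraries were below all Y6M libraries, and it fell by 1.79 (SE 0.45, adjusted p = 0.00605).

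TEX261 was also lower in Y18M than in Y6M, by 0.53 on the log2 scale (SE 0.20, adjusted p = 0.0481). That call was lost under edgeR with both other scalings, with no filter and when any library was left out other than Y18M replicate 2, so it stands near the threshold. Somatic marker lists differed in direction over the same ages. Of all genes, 37.2% were called lower and 36.7% higher in Y4Y over Y6M. The summed Leydig cell genes were 2445 to 4373 CPM in Y4Y and 15342 to 21997 CPM in Y6M, and 10 of 10 were called lower. The Sertoli cell list, with 9 of 12 called lower and 2 higher, summed to 603 to 687 CPM in Y4Y and 5821 to 6256 CPM in Y6M. The fibroblast list, with 6 of 6 lower, summed to 142 to 162 CPM in Y4Y and 1829 to 2319 CPM in Y6M. The endothelium list, with 5 of 6 lower and 1 higher, summed to 165 to 172 CPM in Y4Y and 333 to 341 CPM in Y6M. The peritubular and smooth muscle list summed to 179 to 204 CPM in Y4Y and 251 to 377 CPM in Y6M. Its calls, 2 of 6 lower and 1 higher, did not exceed the shares of all genes. Its median log2 fold change was -0.01. The macrophage list, given above, had most entries higher. The part of these lists in the fall of TEX261 and SPATA2L was not tested.

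TEX10, which belongs to the complex that matures the large ribosomal subunit, kept to 1 narrow range under its entry ENSBTAG00000044003. It had 61.6, 55.3 and 68.0 CPM in Y6M, 67.7, 62.1 and 68.8 CPM in Y18M, and 59.7, 59.7 and 70.4 CPM in Y4Y. The ages overlapped, and the log2 fold change Y4Y over Y6M was 0.04 ± 0.15 (SE, adjusted p = 0.829). Its sign turned when Y6M replicate 2 or Y4Y replicate 3 was left out (-0.034 and -0.037), and with library size alone it was 0.34. A second TEX10 entry with few counts, ENSBTAG00000050097, rose by 3.44 ± 1.00.

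SPATA5L1, an ATPase related to SPATA5, had 9.97, 10.97 and 10.88 CPM in Y6M, 13.3, 9.13 and 12.7 CPM in Y18M, and 13.2, 14.9 and 15.4 CPM in Y4Y. The Y4Y libraries were all above the Y6M libraries, but the difference of 0.45 ± 0.21 had an adjusted p of 0.0790. It was called higher with DESeq2 size factors (0.63, adjusted p = 0.0281), with library size alone (0.75, adjusted p = 0.0108), in the DESeq2 test (0.63, adjusted p = 0.00936) and without Y18M replicate 2 (0.58, adjusted p = 0.0110).

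TEX28 and the SPATA2 entry ENSBTAG00000049507 rested on few reads. TEX28, on the X chromosome in human, had 0, 16 and 8 counts in Y6M, 27, 34 and 22 in Y18M, and 10, 17 and 15 in Y4Y, with a log2 fold change Y4Y over Y6M of 0.43 ± 0.90 (adjusted p = 0.674). It was highest in the Y18M libraries, which were all above the Y4Y libraries. The SPATA2 entry had 18, 17 and 9 counts in Y6M, 2, 7 and 15 in Y18M, and 9, 2 and 0 in Y4Y, so its log2 fold change of -2.33 ± 1.02 was not called (adjusted p = 0.0648). Without Y4Y replicate 1 it was called lower (-4.11, adjusted p = 0.0180), and without Y18M replicate 1 too (-2.32, adjusted p = 0.0460). The main SPATA2 entry, ENSBTAG00000018063, rose by 1.67 ± 0.25.

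**Figure D2:**
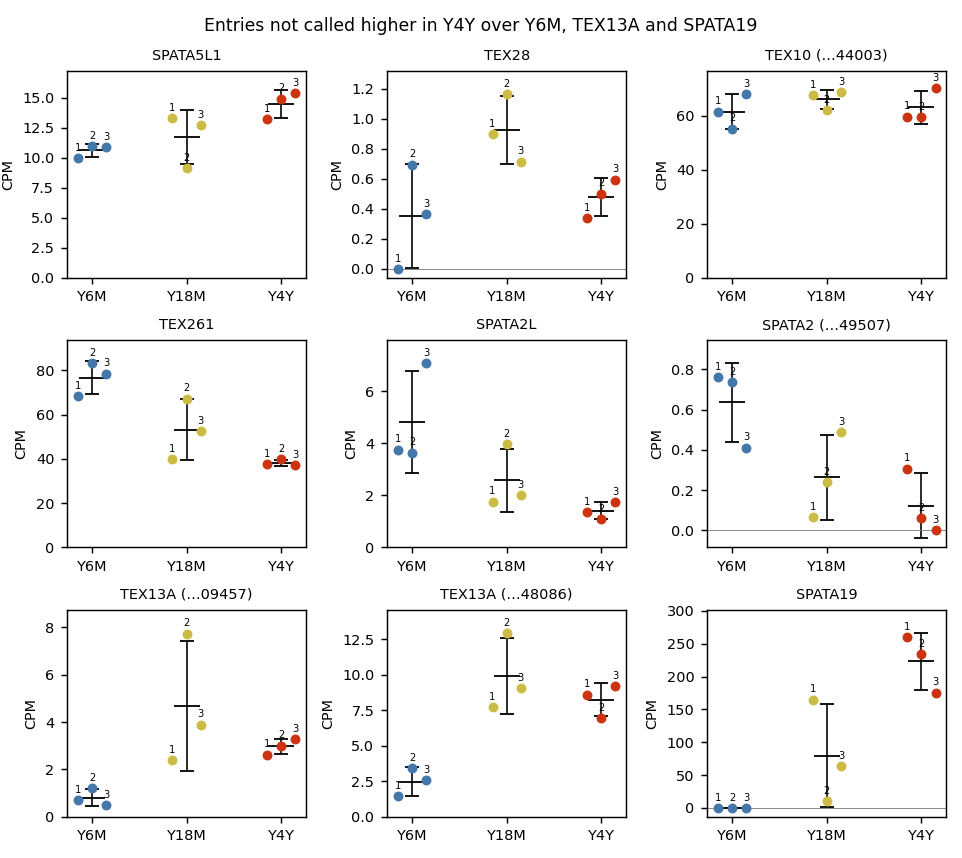
CPM in each library (points, numbered by replicate) with the mean and SD of each age for the 6 entries not called higher in Y4Y over Y6M, both TEX13A entries and SPATA19 for contrast. TEX261 and SPATA2L are highest at Y6M, TEX10 lies between 55.3 and 70.4 CPM throughout, and TEX28 and TEX13A are highest in Y18M replicate 2, where SPATA19 is at 10.1 CPM.

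The animals of 18 months fell into the same order for most members, but the size of the steps between them differed. In Y18M replicates 1, 2 and 3 the median member stood at 93.3%, 8.64% and 41.8% of its Y4Y mean. The spermatid members stood at medians of 96.8%, 7.54% and 37.5%, and the spermatogonia and meiosis members at 98.5%, 66.4% and 89.8%. The marker lists showed the same steps, with 82.0%, 4.05% and 32.0% for spermatid genes and 105%, 50.6% and 81.7% for meiotic genes. Replicate 2 was the lowest of the 3 Y18M libraries for 56 of 64 members and the highest for 6, and replicate 1 was the highest for 55. The same count was not made over all genes.

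In Y18M replicate 2, 36 members were under 10% of their Y4Y mean, 10 were from 10% to under 30%, 12 from 30% to 100%, and 6 over 100%. The 6 over 100% were SPATA2L (284%), both TEX13A entries (260% and 157%), TEX28 (243%), the SPATA2 entry ENSBTAG00000049507 (197%) and TEX261 (176%). The marker lists of other cells had medians there of 406% (fibroblast), 352% (peritubular and smooth muscle), 277% (undifferentiated spermatogonia), 261% (Sertoli), 173% (Leydig), 126% (endothelium) and 17.2% (macrophage). Their part in the levels of these 6 entries was not tested.

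TEX13A, on the X chromosome in human, rose by both entries but in a different order of libraries. Its entry ENSBTAG00000009457 had 0.718, 1.21 and 0.503 CPM in Y6M, 2.39, 7.73 and 3.89 CPM in Y18M, and 2.62, 3.01 and 3.28 CPM in Y4Y. Its entry ENSBTAG00000048086 had 1.44, 3.42 and 2.56 CPM in Y6M, 7.73, 12.9 and 9.08 CPM in Y18M, and 8.61, 6.96 and 9.18 CPM in Y4Y. Both were highest in Y18M replicate 2, and Y4Y over Y6M gave 1.86 ± 0.51 and 1.74 ± 0.36 on the log2 scale. These level differences between single Y18M libraries have no replicate.

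**Figure D3:**
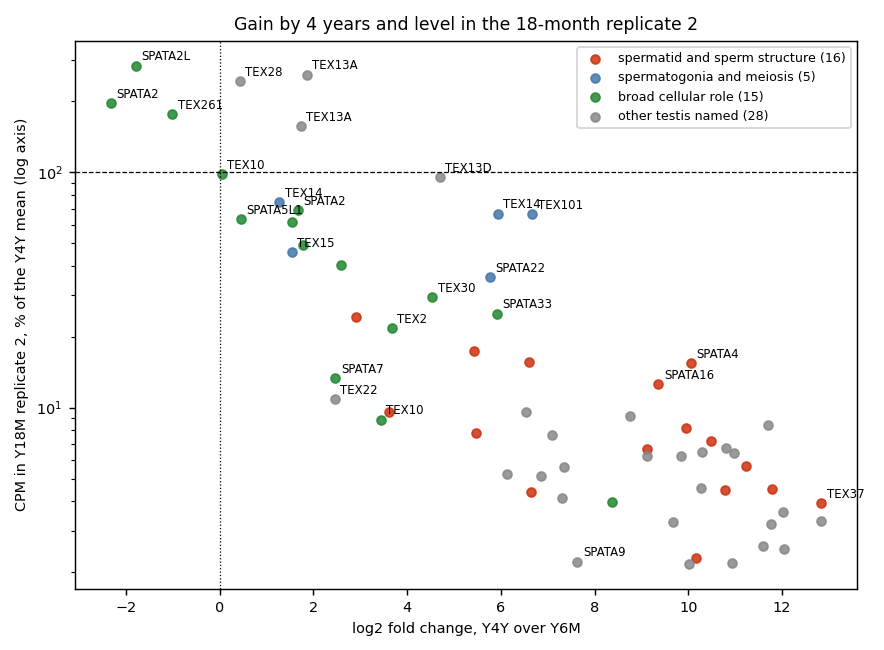
Log2 fold change Y4Y over Y6M (horizontal) and CPM in Y18M replicate 2 as a percentage of the Y4Y mean (vertical, log axis) for the 64 identifiers, coloured by role group, with the dashed line at 100%. Both axes use the Y4Y libraries, and members with gains above 8 lie at or below 15.4% while the 5 spermatogonia and meiosis members lie between 35.8% and 74.5%.

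Between Y4Y and Y18M no member was called in edgeR, and the smallest adjusted p was 0.174. At an unadjusted p under 0.05, 3 were higher in Y4Y (TEX15, SPATA7 and TEX22) and 1 lower (TEX261), and DESeq2 called 0. Over all genes, edgeR called 0 higher and 0.00597% lower, whereas the DESeq2 test called 942 genes, 21.2% of them higher. The median log2 fold change of the members was 1.01, and 57 of 64 were positive. This depended on Y18M replicate 1, and without it 34 members were higher in Y4Y and 1 lower, while 5607 genes were called over the whole table, 40.1% of them higher.

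Levels between genes were compared per length, as the FPKM the authors deposited. In Y4Y, SPATA20 averaged 348 ± 26.5 FPKM, TEX33 318 ± 20.6 FPKM and SPATA19 306 ± 47.4 FPKM (SD, n = 3 each), and in Y6M they averaged 23.1 ± 0.462, 0.101 ± 0.127 and 0.0633 ± 0.110 FPKM. The Y4Y libraries of SPATA20, TEX33 and SPATA19 overlapped in FPKM. TEX14 was listed at 1536 ± 70.7 FPKM in Y4Y and 562 ± 118 FPKM in Y6M, although its CPM was below that of SPATA20 in Y4Y, and no source used here gives the length behind its FPKM. The lowest in Y4Y was the SPATA2 entry ENSBTAG00000049507 at 0.0730 ± 0.0969 FPKM, and TEX28 averaged 0.388 ± 0.119 FPKM.

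The authors' deposited table for Y4Y and Y6M listed 59 of the 64, 58 higher and 1 lower in Y4Y, and all 59 were called the same way here, with 1 more called only here. The authors' deposited table for Y18M and Y6M listed 55, of which 54 were called here. The entry it listed that was not called here is the second TEX10 entry. The authors' deposited table for Y4Y and Y18M listed 0 of the members.

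Circular RNAs form when a splice donor joins an upstream acceptor, and the reads over that junction are listed apart from the gene counts. The circRNA table held 73679 circRNAs, of which 254 came from 28 of the 64 genes and 36 genes had none. Most were rare, since 178 of 254 had under 10 reads in all 9 libraries together, and 18 could be tested. Coordinates below are as the circRNA table gives them, and whether they follow the UMD3.1 build named in the submitters' processing notes was not settled.

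Of the 18, 6 were higher in Y4Y than in Y6M and 0 lower, whereas 15.2% of all circRNAs tested were higher and 5.8% lower. At an unadjusted p under 0.05, 7 were higher and 1 lower, and DESeq2 called 1 lower. The 6 were 3 of SPATA1 and 1 each of SPATA16, TEX14 and SPATA5. All but that of TEX14 had 0 reads in Y6M, so they could be tested only through the older libraries and could differ in 1 direction only, and their count is a description. Leaving out 1 library of either age gave 3 to 4 circRNAs called higher. The SPATA1 circRNA at chromosome 3, 59566125 to 59576606, had 0, 0 and 0 reads in Y6M, 60, 4 and 35 in Y18M, and 75, 95 and 22 in Y4Y. It was at least 80.3-fold higher in Y4Y against 3 reads over the Y6M group (adjusted p = 0.0133). The single-exon circRNA of SPATA16 at chromosome 1, 94345348 to 94345963, had 0 reads in each Y6M library, 0, 0 and 4 in Y18M, and 48, 27 and 18 in Y4Y, at least 38.9-fold higher in Y4Y (adjusted p = 0.0144).

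The other SPATA1 circRNAs called also had no Y6M reads. Those at chromosome 3, 59574394 to 59586639 and 59515145 to 59550951, were at least 41.4-fold and at least 38.9-fold higher in Y4Y. The one at 59515145 to 59550951 was called without Y4Y replicate 1 or 2, but not when any other library of these ages was left out. It was also not called with the replicate block. Summed over all its circRNAs, SPATA1 did have back-splice reads in Y6M, 3, 7 and 12 in replicates 1 to 3. The SPATA5 circRNA at chromosome 17, 34421663 to 34422840, had 0, 0 and 0 reads in Y6M, 13, 0 and 10 in Y18M, and 21, 13 and 10 in Y4Y, at least 18.4-fold higher in Y4Y. It was not called when any 1 of the 6 libraries of these ages was left out, nor with the replicate block. The TEX14 circRNA at chromosome 19, 9559818 to 9571530, had 2, 2 and 0 reads in Y6M, 5, 15 and 5 in Y18M, and 18, 18 and 12 in Y4Y, with a log2 fold change of 3.82 ± 0.90 (adjusted p = 0.0189). The TEX14 circRNA was called without Y6M replicate 2 or Y4Y replicate 3, but not when any other library of these ages was left out. It was also not called with the replicate block. Its Y4Y libraries were all above its Y6M libraries. The other circRNAs called had 0 reads in Y6M and reads in every Y4Y library. Their lack of overlap therefore adds nothing to the calls. The TEX9 circRNA with the most reads, at chromosome 10, 54049153 to 54056729, had 22, 53 and 42 reads in Y6M, 36, 25 and 0 in Y18M, and 48, 71 and 42 in Y4Y. Its ages overlapped and it was not called (0.76 ± 1.03, adjusted p = 0.627).

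In SPATA7, SPATA6 and TEX15 the gene counts rose while the summed back-splice reads were not called. SPATA7, known for the connecting cilium of photoreceptors, had 86, 117 and 68 back-splice reads in Y6M, 149, 88 and 90 in Y18M, and 78, 84 and 75 in Y4Y, of which 814 of 835 belonged to the circRNA at chromosome 10, 100125354 to 100134060. Its gene counts rose by 2.47 ± 0.53 on the log2 scale in Y4Y over Y6M, and its summed back-splice reads changed by -0.02 ± 0.37 (adjusted p = 0.980). Reads per 1000 gene counts were 19.1 ± 2.70 in Y4Y and 156 ± 51.7 in Y6M.

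SPATA6 had 2.01 ± 0.238 back-splice reads per 1000 gene counts in Y4Y and 129 ± 70.2 in Y6M, while its reads were 14, 20 and 11 in Y4Y and 26, 8 and 14 in Y6M. TEX15 had 8.36 ± 1.40 per 1000 in Y4Y and 53.5 ± 18.6 in Y6M. SPATA9 had 2, 7 and 3 reads in Y4Y and 8, 6 and 16 in Y6M, against 1419, 2303 and 1515 gene counts in Y4Y and 9, 4 and 7 in Y6M. In SPATA9 the Y6M back-splice reads were more than the gene counts in 2 of 3 libraries. The same held for SPATA1, with 3, 7 and 12 back-splice reads in Y6M against 15, 3 and 0 gene counts. The back-splice reads of SPATA9 were too few to test, and no source used here says how the authors' counters shared reads between the tables.

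The ratio was compared for the 10 members whose summed back-splice reads passed the count filter and whose gene counts were above 0 in every Y4Y and Y6M library. It was lower in all Y4Y libraries than in all Y6M libraries for 5 of them (SPATA6, TEX15, SPATA7, TEX9 and SPATA17), higher for TEX14, and overlapping for 3. Of the 5, SPATA17 rested on few reads in Y6M, with 17, 3 and 11 back-splice reads over 27, 29 and 35 gene counts. The remaining member, SPATA16, had 0 back-splice reads over 5, 9 and 6 gene counts in Y6M, too few for its ratio there to be read. Of 3280 source genes chosen in the same way, 34.1% were lower and 10.1% higher. TEX14 had 4.57 ± 0.611 back-splice reads per 1000 gene counts in Y4Y and 2.93 ± 1.13 in Y6M. With reads summed per gene, 6 members were higher in Y4Y over Y6M (SPATA5, TEX2, TEX14, SPATA1, SPATA16 and SPATA17), against 18% of source genes. TEX28, at 0 back-splice reads in Y6M, had 4, 26 and 10 in Y18M and 2, 8 and 6 in Y4Y, too few to test.

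**Figure D4:**
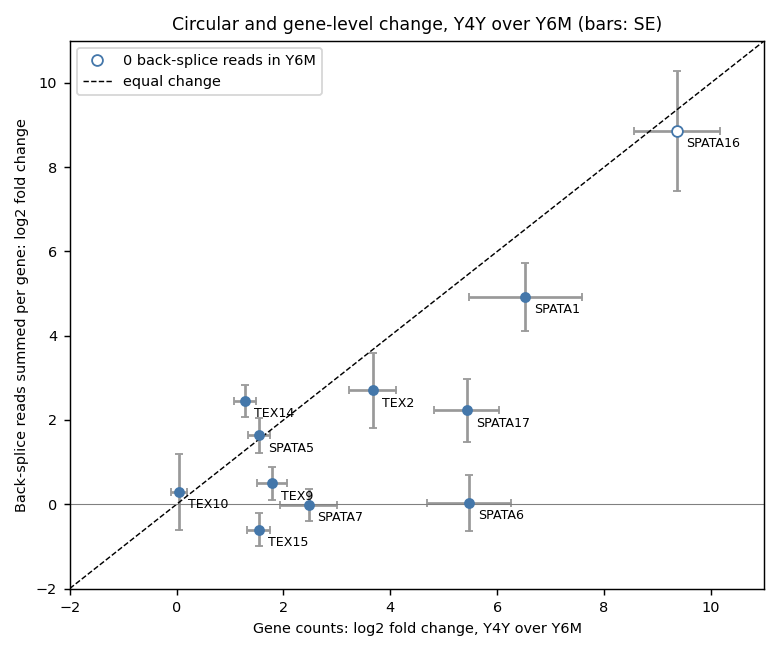
Log2 fold change Y4Y over Y6M of the gene counts (horizontal) and of the back-splice reads summed per gene (vertical) for the 11 members that could be tested, with SE bars and a dashed line of equal change. SPATA6 lies at 5.47 on the horizontal and 0.03 on the vertical axis, well below the line. SPATA16 (open symbol) had 0 back-splice reads in Y6M, so its vertical position is a fitted value and not a measured fold.

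Of the 64 members, 34 carried any Gene Ontology term in the deposited annotation, 3 of them a term for cilium, flagellum or axoneme and 0 a term for the acrosome.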

How the data were processed

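Ribosomal RNA was removed and libraries were sequenced paired-end, per the labels' protocols. Tools named in the submitters' processing notes are HISAT2 2.1.0, StringTie 1.3.4 and fastp 0.18.0, with build UMD3.1, and no role is stated. The gene table deposited by the authors holds, per the file headers, an estimated count and an FPKM per library, and 5 members had a count that was not whole. Its counts were rounded here. The deposited circRNA table holds whole back-splice read counts. The authors' deposited comparison tables give a log2 ratio and an FDR, an adjusted p-value, per gene, and were only set beside the calls.

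All genes, and separately all circRNAs, were fitted in edgeR 4.0.16 (R 4.3.3) over 9 libraries with age alone in the model (6 residual degrees of freedom). Filtering used filterByExpr, scaling TMM, and tests glmQLFTest with Benjamini-Hochberg adjustment over all features and calls under 0.05. The SE is the log2 fold change divided by the square root of F. DESeq2 1.42.0 was an alternative. Nothing says how far animals share other conditions, so p-values measure the spread between these animals. The spread was estimated jointly over all 9 libraries, so the SE of Y4Y over Y6M also carries the spread within Y18M. On simulated gene counts for Y4Y over Y6M (16567 genes), 53% of 2-fold and 100% of 4-fold changes were called. On simulated circRNA counts (3381 circRNAs), 30% of 4-fold and 84% of 16-fold changes were called. In both simulations the changed features lay above a count floor, and the spread was fixed alike for all features and ages. These shares therefore do not give the recovery of members with few counts or a wider spread.

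Replicate numbers do not pair animals: correlations of same-numbered deviations ran from -0.14 to 0.10. The members, role groups and lists were chosen with earlier results of these data known. Members named in full are those not called higher, the 6 largest fitted gains, the 4 highest mean CPM, those called lower, the called circRNAs and the 3 circRNAs with the most reads; others were named after their values were seen. Small RNA files were not used here.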

Additional observations from a re-analysis of the deposited data

How the results depend on the processing

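The counts of genes higher in Y4Y over Y6M (58; 52 to 59 under 17 alternatives) and in Y18M over Y6M (55; 50 to 58) stayed within 1.5 times, where the lowest values come from summing identifiers of a symbol, which leaves fewer entries. Genes lower in Y18M over Y6M (1) were 0 with DESeq2 size factors, with library size alone and with no filter, and 0 to 2 when a library was left out. Y4Y over Y18M (0 higher, 0 lower) gave 0 to 34 higher and 0 to 1 lower when a library was left out, with 34 and 1 without Y18M replicate 1, where 5607 genes of the whole table were called, 40.1% of them higher. The cause was not tested. Library size alone moved the median of all genes by 0.40 in Y18M over Y6M and 0.29 in Y4Y over Y6M, and 72.6% and 58.3% of called genes were then higher. Signs turned for TEX28 in Y4Y over Y6M without Y6M replicate 1 (-0.15, range -0.15 to 1.39 over left-out libraries), for TEX10 (ENSBTAG00000044003) in Y4Y over Y6M without Y6M replicate 2 (-0.034) and without Y4Y replicate 3 (range -0.037 to 0.17), and for TEX10 in Y4Y over Y18M with DESeq2 size factors and in the DESeq2 test (0.0062 and 0.0060). The SPATA2 entry ENSBTAG00000049507 turned to 1.52 (Y4Y over Y6M), 1.22 (Y18M over Y6M) and 0.30 (Y4Y over Y18M) when summed with the larger SPATA2 entry, whose counts then set the value.

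With the replicate block, which pairs no animals, 58 genes were higher and 2 lower in Y4Y over Y6M, 54 higher and 1 lower in Y18M over Y6M, and 0 in Y4Y over Y18M. The block left 1 circRNA of these genes higher, of SPATA1. Leaving out a library gave 3 to 4 circRNAs higher, and the 3 called without each of the 6 libraries in turn were 2 of SPATA1 and 1 of SPATA16. DESeq2 called 1 circRNA lower, of TEX15. Depth limits TEX28, SPATA48, the smaller SPATA2 entry and most circRNAs.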
